A study of Mus musculus with 12 samples.

Results

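The response of miR-210 knockout (KO) macrophages to interleukin-4 (IL-4) was followed across all genes, in 6 of the 12 RNA-seq libraries of the series: 3 libraries of unpolarized cells (KO M0) and 3 of cells polarized with IL-4 (KO M2). These were taken as the libraries that the labels place in the KO M0 and KO M2 groups, and the 6 wild-type (WT) libraries, 3 M0 and 3 M2, served as the comparison. The cells were bone marrow-derived macrophages of C57BL/6J mice, grown from monocytes for 7 days in L929-conditioned medium, a source of the growth factor M-CSF, and then kept for 72 h either with 20 ng/mL IL-4 (M2) or without it (M0). The KO mice came from crossing miR-210 floxed mice with mice that carry Cre under the Gata-1 promoter, and KO and WT animals were then bred from heterozygous parents. In the labels every one of the 4 groups carries a different batch, and in all comparisons here batch and group cannot be told apart. Nothing in the labels says whether the 3 libraries of a group came from separate animals, and the p-values below therefore measure only the spread between these libraries.

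IL-4 binds a receptor made of the IL-4 receptor alpha chain and a partner chain, whose Janus kinases phosphorylate the transcription factor STAT6. Phosphorylated STAT6 enters the nucleus and drives the genes of alternative (M2) activation, among them those for arginase, chitinase-like proteins, the mannose receptor and the inhibitors of the SOCS family that restrain the same pathway. miR-210 is a microRNA best known as a target of hypoxia-inducible factor, and it lowers the expression of messenger RNAs that pair with its seed.

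The microRNA that the KO cells lack and the promoters of 4 genes with large changes, 3 that rose and 1 that fell, are printed first. The mature miR-210 strands are shown with the seed (bases 2 to 8) in capitals, as RefSeq gives them for the GRCm38.p6 build, where they lie on the minus strand at chr7:141221407-141221428 (3p) and chr7:141221445-141221466 (5p).
mmu-miR-210-3p: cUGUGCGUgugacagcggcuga
mmu-miR-210-5p: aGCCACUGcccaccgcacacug
Reads of the Mir210 gene (chr7:140801297-140801406, GRCm39, minus strand) numbered 0 in all 6 KO libraries, against 1, 3 and 5 in WT M0 libraries and 1, 2 and 1 in those of WT M2. This is the order the labels give, although libraries of this kind catch few reads of so short a gene.

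Next come promoters from RefSeq's table (GRCm38.p6, 250 bases before to 50 after the start, on the gene's strand). Capitals mark each match to the STAT palindromes, TTC and GAA with 4 bases of any kind between them (the spacing that STAT6 prefers) or with 3, which read the same on both strands. In Ifit3 capitals mark each match, on either strand, to the core of the element bound by interferon-activated factors, GAAA and GAAA with 2 bases between them, which reads TTTC and TTTC on the strand shown. Retnla lies at chr16:48842359-48842658 (plus strand), Chil3 at chr3:106167515-106167814 (minus strand), Cish at chr9:107296409-107296708 (plus strand) and Ifit3 at chr19:34583279-34583578 (plus strand).
Retnla: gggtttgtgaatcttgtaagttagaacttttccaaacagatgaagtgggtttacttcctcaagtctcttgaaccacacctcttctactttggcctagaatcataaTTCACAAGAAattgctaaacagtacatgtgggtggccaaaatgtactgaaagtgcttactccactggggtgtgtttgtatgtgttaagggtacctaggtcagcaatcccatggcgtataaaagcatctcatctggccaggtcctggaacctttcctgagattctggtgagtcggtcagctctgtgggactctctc
Chil3: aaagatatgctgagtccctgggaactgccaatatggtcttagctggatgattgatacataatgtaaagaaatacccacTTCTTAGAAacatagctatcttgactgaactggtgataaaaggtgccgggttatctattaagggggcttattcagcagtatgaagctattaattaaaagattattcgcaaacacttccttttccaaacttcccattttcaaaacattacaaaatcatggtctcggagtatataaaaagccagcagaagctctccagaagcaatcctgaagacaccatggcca
Cish: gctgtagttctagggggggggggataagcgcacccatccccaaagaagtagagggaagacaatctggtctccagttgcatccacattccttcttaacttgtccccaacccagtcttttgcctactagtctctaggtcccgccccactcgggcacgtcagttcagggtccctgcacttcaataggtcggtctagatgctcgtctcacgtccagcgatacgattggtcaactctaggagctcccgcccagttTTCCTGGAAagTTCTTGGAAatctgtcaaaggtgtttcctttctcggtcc
Ifit3: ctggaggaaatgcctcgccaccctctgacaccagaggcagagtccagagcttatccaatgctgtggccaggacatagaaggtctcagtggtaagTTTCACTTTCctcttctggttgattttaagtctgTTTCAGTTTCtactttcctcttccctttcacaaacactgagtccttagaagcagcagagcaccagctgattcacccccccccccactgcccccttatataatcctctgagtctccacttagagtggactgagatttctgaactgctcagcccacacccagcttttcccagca
The Retnla window held 1 match with the spacing of 4 bases, beginning at position -145 from the start, and the Chil3 window 1 match with the spacing of 3, beginning at -172. Cish held 2 matches with the spacing of 3 at its start, and Ifit3 held 2 of the interferon motif. The windows of Mrc1 held no STAT match, and neither of the Ifit2 windows held the interferon motif. Arg1 and Fn1 have no entry in the table.

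Among the 12034 promoters of tested genes, 11.8% held either STAT palindrome, against 11.4% of 2265 promoters of genes that rose with IL-4 in KO cells and 11.9% of 2139 of those that fell. The interferon motif stood in 3.38% of all of them, in 2.78% of promoters of genes that rose and in 6.17% of those that fell. Because only 9446 of 14317 tested gene symbols have a promoter in the table, less than the share needed to compare groups of genes, these figures are given as a description only and the comparison is void. Within the lists used below, 8 of 16 promoters of alternative activation genes (15 of 23 tested genes matched) held a STAT palindrome, and 21 of 36 promoters of type I interferon-stimulated genes (29 of 40 matched) held the interferon motif. The same limit holds for these counts, which are a description only. The lists were chosen with earlier results of these data known, and the interferon motif was added after seeing the data. A match is a run of letters, and binding was not measured.

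The KO libraries held 8913242 to 10167695 counts in M0 and 8096658 to 9671168 in M2, and the WT libraries 7930525 to 9753468. Counts covered the exons of each gene. The cells expressed macrophage genes at high levels in both states: Cd68 had a mean of 10202 ± 965 (SD, n = 3) normalised counts in KO M0 and 11581 ± 760.0 in KO M2, Csf1r, the receptor for M-CSF, 7228 ± 47.0 and 7909 ± 999, and Adgre1, which encodes F4/80, 10055 ± 692 and 8270.3 ± 266. Adgre1 was called lower in M2 (-0.28 ± 0.08), a call lost without M0 library 1 (-0.23). Defining genes of other blood cells were at or near 0. Of 12 lymphocyte markers 7 had no count in any KO library and 2 could be tested (summed level 77.8 to 103 in M0 and 76.0 to 84.7 in M2). Of 12 mast cell and basophil markers 7 had no count (summed level 4.09 to 5.49 in M0, 26.9 to 35.7 in M2). Only Gata2 could be tested there, and it was called higher in M2 (mean 0.61 ± 1.06 to 29.0 ± 6.05, at least 9.45-fold against 3 counts per library). Of 12 neutrophil markers Ly6g and 2 others had none (summed level 1970.1 to 2155 and 1895 to 2441, nearly all from Mmp8 and Csf3r, which macrophages also express). Of 12 erythroid and megakaryocyte markers 5 were at 0, with a summed level of 3959 to 4748 in M0 and 3461 to 4000.2 in M2 that was almost wholly Pf4. In bulk RNA, fewer cells of a type and less RNA per cell cannot be told apart.

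The libraries that stood furthest from their groups were of M0 cells. In KO M0 library 3, 36 genes had more than 2 times the normalised count of both other KO M0 libraries, against 0 to 18 genes in each of the other 11 libraries, counting genes over 50 in at least 1 library of the group. Genes below both others by the same factor were most numerous in KO M0 library 1 (20), with 9 in KO M0 library 3. WT M0 library 2 had 18 genes above and 11 below. Of the 36 genes high in KO M0 library 3, 18 stand on a list of immediate early genes, which cells switch on within minutes of a stimulus. The list was picked after the values had been seen, so that this count only describes what was seen, and it holds 29 tested genes in all. Egr1 had 29.7, 27.1 and 2442 normalised counts in KO M0 and 93.5, 107 and 119.8 in KO M2. Fos had 755, 737 and 8368 in M0 and 1025, 1128 and 1100.3 in M2. With all libraries, neither gene passed the test (log2 fold change -2.97 ± 1.20 (SE) for Egr1, adjusted p = 0.076, and -1.60 ± 0.71 for Fos, adjusted p = 0.10). Without library 3 both rose with IL-4, by 1.89 (adjusted p = 2.9e-05) and 0.52 (adjusted p = 0.0012), so the direction of such genes turned on 1 library.

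**Figure D1:**
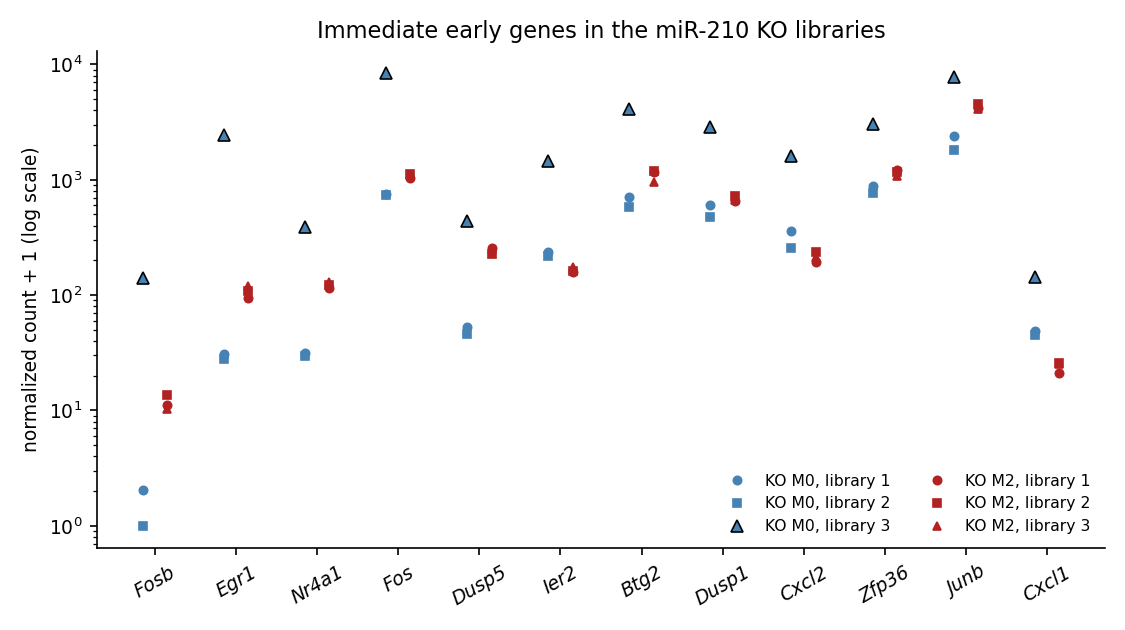
Normalised counts plus 1 on a log axis for the 12 immediate early genes in which KO M0 library 3 lay furthest above both other KO M0 libraries; each point is 1 of the 6 KO libraries, blue for M0 and red for M2, with circle, square and triangle for the column numbers 1, 2 and 3. The outlined blue triangles, KO M0 library 3, lie far above the other M0 points in every gene shown, as in Egr1 with 2442 against 29.7 and 27.1.

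IL-4 polarization of KO macrophages changed genes throughout the transcriptome. Of 14331 genes tested, 4842 (33.8%) passed edgeR's quasi-likelihood test with Benjamini-Hochberg adjustment, for which the adjusted p had to lie below 0.05 and the change beyond 1.2-fold. Higher levels in M2 were called for 2496 genes (17.4%) and lower levels for 2346 (16.4%). Every count of list members below is to be read beside these shares of all genes tested. Because earlier results of these data were known when the lists were chosen, such counts only describe the data. The 3 M2 libraries lay wholly above or below the 3 M0 libraries in 6630 genes (46.3% of those tested), among them 2463 of the genes that rose and 2271 of those that fell. The median log2 fold change over all genes was -0.0078.

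The increases reached further than the decreases. A log2 fold change over 1 was called in 1057 genes that rose and 743 that fell, one over 2 in 448 and 210, and one over 3 in 253 and 69. Genes that rose took 16.8% of the normalised counts of tested genes in KO M0 and 29.9% in KO M2, and genes that fell 29.2% and 17.5%. Protein-coding genes made up 2082 of the genes that rose and 2029 of those that fell, and long non-coding RNAs 225 and 181. In 119 genes that rose the M0 group was at or under 3 counts per library, so that a fold change is only a lower bound there. Without KO M0 library 3, 2256 genes rose and 2159 fell, and these held 2141 (85.8%) and 2032 (86.6%) of the calls made with all 6 libraries.

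**Figure D2:**
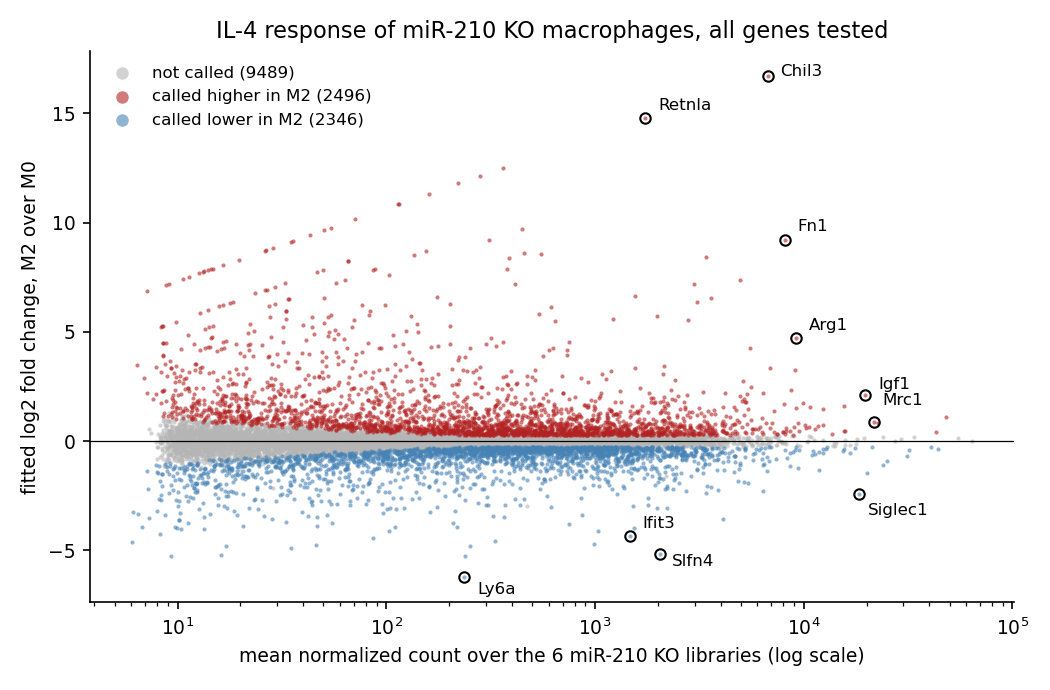
Each point is 1 of the 14331 genes tested; the horizontal axis is the mean normalised count over the 6 KO libraries on a log scale and the vertical axis the fitted log2 fold change of KO M2 over KO M0, with 2496 genes called higher in red and 2346 called lower in blue. Retnla and Chil3 stand at the top, on the slanting edge formed by genes with few or no counts in M0, whose fitted value depends on the prior count and is no measure of fold, while Ly6a, Slfn4 and Ifit3 lie lowest among the genes marked.

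The 4 markers of the IL-4 polarized state all rose in KO cells. Arg1 (chr10:24791118-24803817, GRCm39, as for all gene positions below), the cytosolic arginase that hydrolyses arginine to ornithine, had 671, 579.6 and 780.0 normalised counts in M0 and 17159, 17640.3 and 18465 in M2. Its log2 fold change was 4.71 ± 0.11 (adjusted p = 2.0e-11) and the groups did not overlap. Retnla (chr16:48662895-48664824), which encodes the secreted protein RELMα, had no count in M0 and 4414, 3565 and 2489.9 in M2, a level at least 1136-fold higher taken against 3 counts per library. The 3 M2 libraries varied more in Retnla than in Arg1, with an SD of 964 around a mean of 3489.6. Mrc1 (chr2:14234151-14336926), the mannose receptor CD206, was abundant before IL-4, with 13507, 16315 and 15626 in M0, and reached 27235, 26904 and 30279.6 in M2. That made Mrc1 the smallest of the 4 changes by fold (0.89 ± 0.09, adjusted p = 4.4e-06). Fn1 (chr1:71624673-71692419), the matrix protein fibronectin, went from 29.7, 29.8 and 22.0 to 15504, 14310.0 and 19057, a log2 fold change of 9.22 ± 0.17 (adjusted p = 2.0e-12).

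Levels per kilobase were taken over the joined length of all annotated exons of a gene. That length can exceed the expressed transcript, by an amount that differs between genes, so the order of genes is uncertain. By this measure the mean level of Arg1 in KO M2 was 5557 normalised counts, close to that of Retnla (5647) and above those of Mrc1 (3595) and Fn1 (1029). Chil3 (chr3:106054870-106074880), a chitinase-like protein also called Ym1, stood above all of these at 7697. It had no count in M0 and 13449, 13512 and 13449.6 in M2, at least 4387-fold higher, and its 3 M2 libraries were nearly level.

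**Figure D3:**
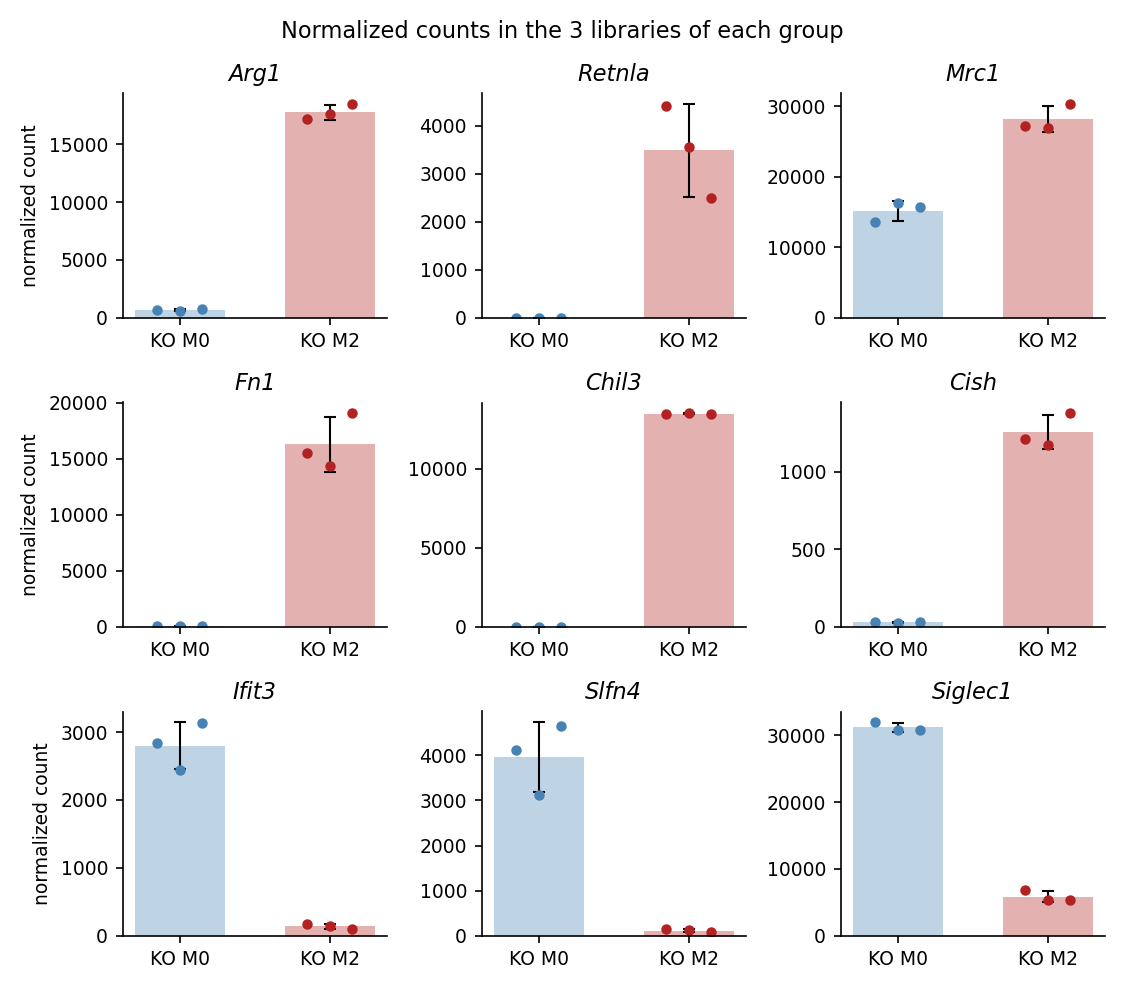
Normalised counts of 9 genes in the 3 KO M0 (blue) and 3 KO M2 (red) libraries, with bars at the mean, error bars of 1 SD and points for libraries, each panel on its own linear axis from 0. Arg1, Retnla, Mrc1, Fn1, Chil3 and Cish are higher in all M2 libraries and Ifit3, Slfn4 and Siglec1 lower, with no overlap between groups in any panel.

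Of 30 alternative activation genes on the list used here, 23 could be tested: 22 rose and 1 fell, with a median log2 fold change of 6.29. This list too was chosen with earlier results known, so its count and median are a description only. Besides those above, Mgl2 (8.43 ± 0.13), a galactose-type lectin, went from 15.4, 23.6 and 19.2 to 6899.6, 6931 and 6519. Pdcd1lg2 (8.56 ± 0.25), the checkpoint ligand PD-L2, went from 5.12, 2.63 and 0.915 to 1292, 1097 and 923 (9.17 without M0 library 1). Itgax (7.17 ± 0.16), the integrin CD11c, rose from a mean of 41.1 ± 12.9 to 5918 ± 271. Clec7a (4.24 ± 0.13), the beta-glucan receptor Dectin-1, and Tgm2 (1.91 ± 0.10), a transglutaminase, also rose in every M2 library above every M0 library. Ccl22, a ligand of the chemokine receptor CCR4, reached only 21.4, 17.3 and 30.0 normalised counts from 11.3, 9.63 and 8.24 (1.22 ± 0.32, adjusted p = 0.010), and lost the call by DESeq2 (adjusted p = 0.051) and without M2 library 3 (adjusted p = 0.060). The 1 member that fell was the haemoglobin scavenger receptor Cd163, from 58.3, 56.9 and 61.3 to 38.3, 37.5 and 26.5 (-0.78 ± 0.21, adjusted p = 0.010).

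Among protein-coding genes with a mean over 100, the other large increases, by the same bound of 3 counts per library, were those of the potassium channel Kcnd3 (at least 237-fold), the ribonuclease Rnase2a (at least 182-fold), the sodium channel Scn3a (at least 144-fold), the homeobox gene Msx3 (at least 104-fold), the adhesion protein Cdh1 (at least 74.6-fold), and the cytokine receptor Il31ra (at least 74.5-fold). All 6 of these had no count in any KO M0 library. Kcnd3 (chr3:105359284-105581318) had 759, 674 and 749 in the M2 libraries, and Rnase2a (chr14:51492719-51493595) 748, 558 and 374. Flt1, the VEGF receptor, had 0, 0 and 1.83 in M0 and 330.2, 246 and 351 in M2, and Lipn, a lipase, 2.05, 0.876 and 0 against 621, 622 and 619. By the number of counts gained, the leading genes were different ones. Ahnak, a very large scaffold protein, rose from 30879 ± 3925 to 65462 ± 6919.7 (1.08 ± 0.10), Igf1, a growth factor that macrophages secrete, from 7404 ± 146 to 32140.2 ± 582 (2.12 ± 0.07), and the elastase Mmp12 from 7668 ± 1077 to 23412 ± 1327 (1.61 ± 0.10).

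Genes of the pathway that carries the IL-4 signal changed in both directions. Of 22 tested genes of the IL-4 receptor and JAK-STAT6 pathway 8 rose and 8 fell (median 0.0068), where 17.4% of all genes tested rose and 16.4% fell. The receptor chain Il4ra fell from 4586, 3946 and 4372 to 2597, 2373 and 2121 (-0.86 ± 0.09, adjusted p = 8.8e-06), and Il13ra1, the chain that pairs with it on cells outside the lymphoid lineages, fell from 449, 425 and 469 to 132, 150.1 and 143 (-1.66 ± 0.10). Stat6 itself had 1303, 1207 and 1257 in M0 and 1238, 1259 and 1228 in M2, with overlapping groups and a log2 fold change of -0.02 ± 0.07 (adjusted p = 0.90). The 3 inhibitors of cytokine signalling with the largest changes rose in all M2 libraries. Socs2 went from 2.05, 8.76 and 3.66 to 399, 420.4 and 377 (6.29 ± 0.23, and 7.04 without M0 library 2). Cish, whose start carries the pair of STAT palindromes printed above, went from 27.6, 26.3 and 29.3 to 1210.2, 1173 and 1377 (5.49 ± 0.12), and Socs1 from 68.6, 54.3 and 70.5 to 1208, 1193 and 1022 (4.15 ± 0.12). The kinase Jak2 rose as well (1.29 ± 0.08), while Socs3, an inhibitor of gp130 receptors, fell (-1.45, and -0.90 without M0 library 3).

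Transcription factors of macrophage polarization were mostly higher after IL-4, with 19 of 34 up and 5 down (8 down without M0 library 1 or M0 library 2), at a median of 0.48. Bhlhe40 (chr6:108636626-108644502), a helix-loop-helix repressor, went from 82.9, 51.7 and 84.2 to 5908, 5885 and 6459 (6.39 ± 0.15), whereas its paralogue Bhlhe41 fell (-1.86). Irf4, an interferon regulatory factor of the M2 programme, rose from 30.7, 38.5 and 24.7 to 529.6, 459 and 355 (3.83 ± 0.19). Egr2 rose from 319, 229 and 528 to 3892, 3794 and 4094 (3.45 ± 0.22), with its highest M0 value again in library 3. Pparg, the nuclear receptor of lipid metabolism (2.63 ± 0.10), Klf4 (2.84 ± 0.20) and Myc (1.88 ± 0.17) rose too. Maf, a factor of resident macrophages, fell from 9585 ± 676 to 3724 ± 127 (-1.36 ± 0.08).

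Genes of arginine and polyamine metabolism changed in both directions, with 9 of 20 up and 3 down, where 17.4% of all genes tested rose and 16.4% fell. The arginine transporter Slc7a2 (chr8:41315431-41375345) went from 63.5, 51.7 and 60.4 to 9863, 9751 and 9851 (7.39 ± 0.10), and Ass1, which recycles citrulline to arginine, rose 1.85 ± 0.19 on the log2 scale. Odc1, which turns ornithine into the polyamine putrescine, had 121, 129.6 and 505 in M0 and 87.9, 85.6 and 112 in M2. It was called lower (-1.41 ± 0.46, adjusted p = 0.032), but the size rested on KO M0 library 3, without which the call was lost (-0.42, adjusted p = 0.083), and the call was lost also by DESeq2 (0.14) and without M2 library 1 (0.098) or M2 library 2 (0.093).

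Genes of lipid synthesis and uptake were mostly higher after IL-4. Of 31 tested genes of cholesterol and fatty acid synthesis 24 rose and 1 fell, with a median of 0.84. Scd2, a desaturase, went from 65.5, 76.2 and 42.1 to 1559.5, 1110.1 and 913 (4.28 ± 0.22), and Sqle, the squalene epoxidase, from 54.3, 42.9 and 36.6 to 503, 399 and 371 (3.25 ± 0.16). Fasn, the fatty acid synthase, rose less (1.39 ± 0.16), and Hmgcs1, at the head of the mevalonate pathway, rose from a mean of 525 ± 41.5 to 1479 ± 166. The exception was the sterol reductase Tm7sf2 (-0.51 ± 0.17, adjusted p = 0.032), whose call was lost by DESeq2 (adjusted p = 0.089) and without M0 library 1 (0.10), M2 library 1 (0.091) or M2 library 2 (0.11). Of 35 genes of fatty acid oxidation and lipid handling 21 rose and 3 fell (5 without M0 library 2), at a median of 0.38. Lpl (chr8:69284603-69360100), the lipoprotein lipase, went from 1790.3, 1852 and 1496 to 16055, 15348 and 17930.4 (3.26 ± 0.10), and the cholesterol exporter Abcg1 rose from 454 ± 67.4 to 3765 ± 505 (3.05 ± 0.13). Cpt1a, which admits fatty acids to the mitochondrion, fell (-0.56 ± 0.08), as did the fatty acid carrier Fabp5 (-0.69 ± 0.10).

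Respiratory chain genes moved little: 6 of 43 rose and 37 were not called (median 0.10). The count of 6 reached 12 without KO M0 library 1. Glycolysis genes were split, 6 up and 9 down of 27, and so were those of the TCA cycle, 7 and 4 of 28, where 4 rose without M2 library 1. Over all genes tested 17.4% rose and 16.4% fell, and no list was tested against these shares. Of 24 hypoxia genes 10 fell and 2 rose (1 without M2 library 2 or M2 library 3). Egln3, an oxygen-sensing prolyl hydroxylase, fell from 442, 393 and 402 to 46.2, 70.2 and 76.0 (-2.68 ± 0.15), and Vegfa fell from 4141, 3672 and 6294 to 2202, 2320.2 and 2365 (-1.03 ± 0.16).

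Genes of osteoclasts and of macrophage fusion, held on 1 list, formed a further group of increases, 9 of 14 tested, with the other 5 not called (median 1.77). Ocstamp (chr2:165235680-165242336) and Dcstamp, membrane proteins needed for macrophages to fuse, had 3.07, 0 and 0 and 0, 0.876 and 0.915 normalised counts in M0. In M2 they reached 923, 839 and 925, and 314, 261 and 241, at least 292-fold and 88.6-fold higher. Itgb3, the vitronectin receptor chain, rose 5.79 ± 0.22, Atp6v0d2, a subunit of the proton pump, 3.35 ± 0.08, and Acp5, the tartrate-resistant phosphatase, 2.95 ± 0.13. Matrix genes were divided, with 20 of 40 up and 12 down: Mmp9 rose (1.52 ± 0.12), while Mmp14, the membrane-bound collagenase, fell from 608, 616 and 569 to 309, 305 and 280.0 (adjusted p = 1.4e-06). Coagulation factors F7 (7.17 ± 0.16) and F10 (6.64 ± 0.13), both vitamin K-dependent proteases, had the largest increases among 36 genes of purinergic signalling, eicosanoids and coagulation, of which 13 rose and 11 fell. F10 had 35.8, 26.3 and 31.1 in M0 and 2987, 3366 and 2915 in M2.

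**Figure D4:**
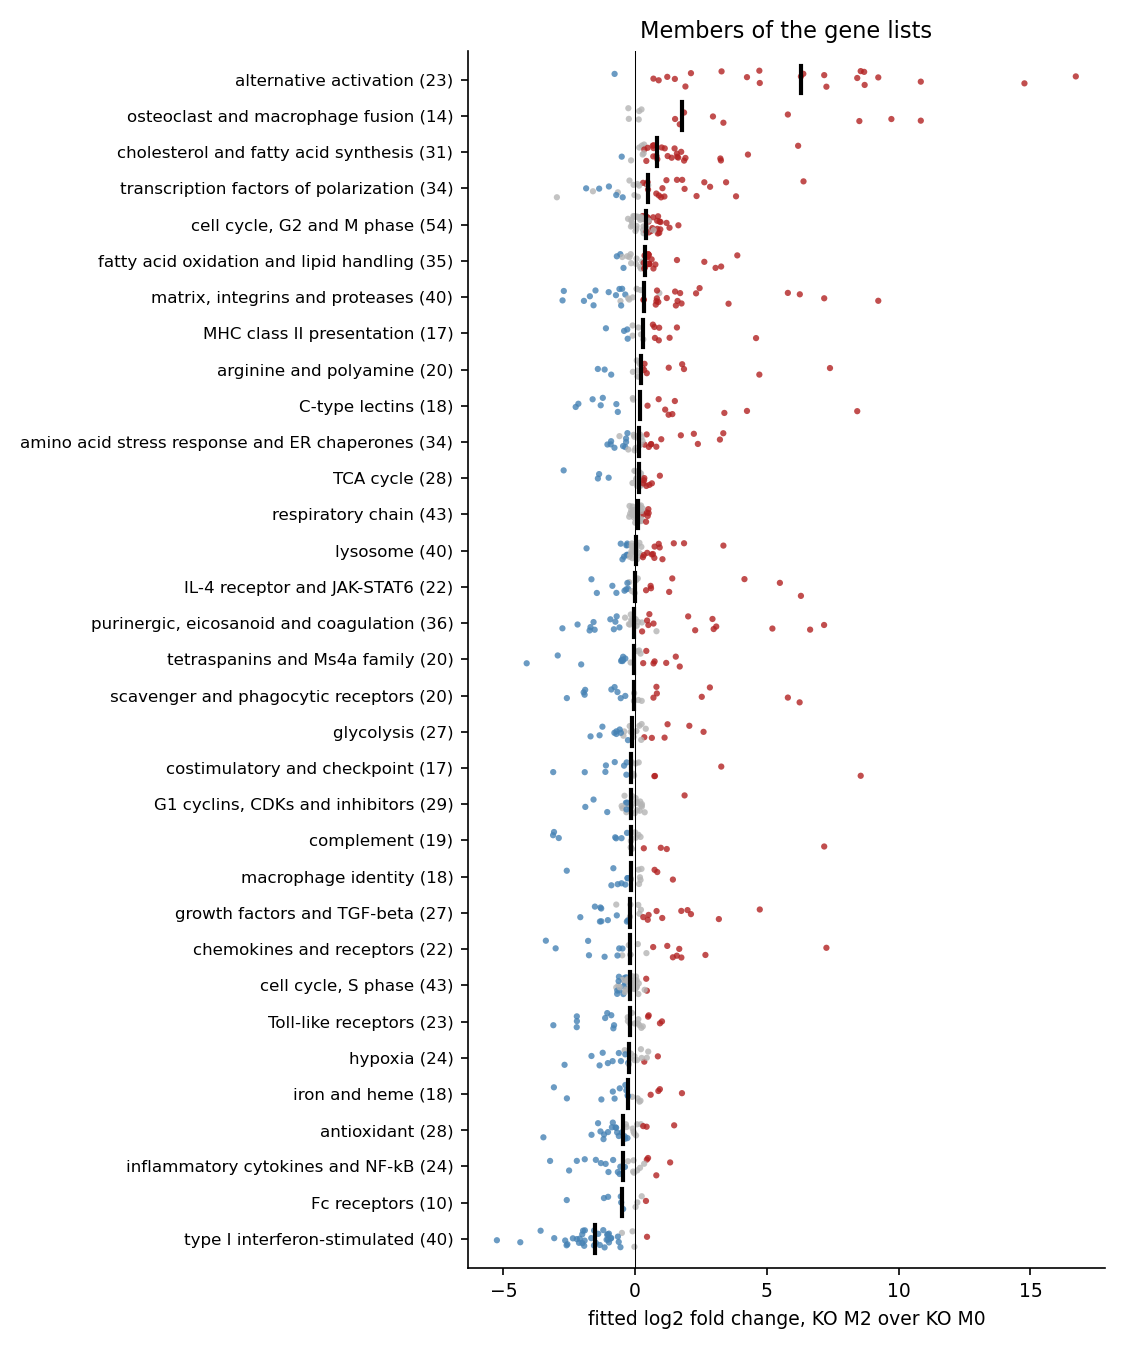
Fitted log2 fold change of KO M2 over KO M0 for each tested member of the gene lists with 10 or more tested genes (number in brackets), red where called higher, blue where called lower and grey where not called, with a black bar at the list's median. The alternative activation list lies furthest to the right (median 6.29) and the type I interferon-stimulated list furthest to the left (median -1.52), and most other lists hold members on both sides of 0. Lists were chosen with earlier results of these data known.

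Interferon-stimulated genes mostly fell. Of 40 tested type I interferon-stimulated genes 36 fell and 1 rose, with a median of -1.52. Ifit3 (chr19:34560899-34566443), an antiviral tetratricopeptide protein, went from 2834, 2437 and 3126 to 175, 139 and 95.6 (-4.36 ± 0.17, adjusted p = 1.1e-09). Its near copy Ifit3b went from 444, 399 and 553 to 16.9, 12.5 and 6.91 (-5.24 ± 0.22), and the sources used here do not say how reads shared between such copies were counted. Ifit2 fell from 7859, 6504 and 8270.3 to 711, 698 and 472 (-3.59 ± 0.15) and Irf7, the factor that amplifies interferon production, from 3715, 3040.0 and 3887 to 490.2, 496 and 278 (-3.07 ± 0.18). In each of these 4 genes M2 library 3 was the lowest of its group. The 1 member that rose was Gbp2, a guanylate-binding protein (150.5, 149 and 161 to 242, 209 and 179, 0.45 ± 0.13, adjusted p = 0.015), a call lost without M2 library 1 (adjusted p = 0.097) or M2 library 2 (0.053). The count of 36 held under every other normalisation, filter and test tried, other than a fold limit of 1, and without each library in turn.

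The largest decreases overall included other genes of the interferon response and receptors of the myeloid surface. Ly6a (chr15:74863840-74869880), the stem cell antigen Sca-1, went from 426, 343 and 635 to 6.76, 8.66 and 2.30 (-6.24 ± 0.35). Slfn4 (chr11:83066012-83081042), of the schlafen family, went from 4122, 3129 and 4648 to 137, 121 and 72.6 (-5.16 ± 0.20), and Slfn1 fell by 4.11. Fpr1 and Fpr2, receptors for formylated bacterial peptides, fell from 2106, 1798 and 1795 to 86.8, 67.3 and 63.4 (-4.71 ± 0.13) and from 421, 407 and 408 to 22.5, 31.7 and 25.3 (-3.94 ± 0.14). Klra2 (-4.82 ± 0.16), a Ly49-type receptor, Ms4a4c (-4.11 ± 0.28), Cav1 (-3.92 ± 0.21), the coat protein of caveolae, and Ifi213 (-3.96 ± 0.20), a sensor of the Ifi200 family, fell too. Ifi208, of the same family, fell from 603, 593 and 714 to 37.2, 28.9 and 12.7 in KO cells (-4.58 ± 0.20). It could not be compared with WT, where its mean was 0.30 in M0 and 0.68 in M2. By counts lost, the leading gene was Siglec1, the sialic acid receptor CD169, from 31950.3, 30815 and 30748 to 6765, 5363 and 5313 (-2.42 ± 0.10). Cd93 (-1.45 ± 0.08), the pore-forming Mpeg1 (-1.08 ± 0.07), Selenop (-0.91 ± 0.10), Apoe (-0.66 ± 0.09) and lysozyme Lyz2 (-0.37 ± 0.08) followed.

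Inflammatory and pattern-recognition genes fell more often than they rose, 13 against 4 of 24 for cytokines and NF-kB genes (median -0.47) and 9 against 4 of 23 for Toll-like receptors and their adaptors. Over all genes tested 16.4% fell and 17.4% rose. Tnf fell from 1015, 743 and 1261 to 354, 329.9 and 392 (-1.49 ± 0.16) and Il10, an anti-inflammatory cytokine, from 54.3, 61.3 and 98.0 to 9.01, 7.70 and 5.76 (-3.23 ± 0.34). Tlr2 (-2.21 ± 0.09) and Tlr9 (-3.10 ± 0.22) fell, while Tlr8 rose from 3868, 3813 and 3849 to 7513, 7737 and 6906 (0.94 ± 0.07). The chemokines Ccl3 (-3.39 ± 0.14) and Ccl4 (-3.02 ± 0.17) fell in all libraries. Fcgr1, the high-affinity receptor for IgG, fell from 3115, 2898 and 3224 to 599, 562 and 366 (-2.59 ± 0.15). Of 10 tested genes of Fc receptors and their signalling 6 fell and 1 rose. Besides Fcgr1 these were the shared gamma chain Fcer1g (-0.55 ± 0.08), the neonatal receptor Fcgrt (-0.53 ± 0.11), the kinase Lyn (-1.18 ± 0.08), the phosphatase Inpp5d and the siglec Cd33, which are no Fc receptors, and the receptor that rose was Fcgr3 (0.41 ± 0.08). Of 17 genes of antigen presentation on MHC class II 8 rose and 4 fell (2 without M0 library 1). Cd74, the invariant chain, went from 441, 372 and 411 to 961, 806 and 533 (0.91 ± 0.17), and the costimulatory Cd86 fell from 567, 519 and 738 to 334, 306 and 205 (-1.11 ± 0.17).

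Antioxidant genes fell in KO cells, 17 of 28, with 3 up (median -0.45). Gsr, the glutathione reductase, went from 1425, 1203 and 1268 to 382, 419 and 436 (-1.65 ± 0.09), and Gclm, the modifier subunit of glutathione synthesis, from 3307, 2929.7 and 3166 to 1130.2, 1152 and 1264 (-1.41 ± 0.08). Catalase (Cat, -1.20 ± 0.08) and superoxide dismutase 1 (Sod1, -1.18 ± 0.11) fell to a like extent. Gpx1, a glutathione peroxidase, rose from 3029.8, 2396 and 3163 to 7763, 8215 and 7992 (1.48 ± 0.10), and the peroxiredoxin Prdx2 (0.44 ± 0.09) and the microsomal transferase Mgst1 (0.31 ± 0.10) rose less. The call of Mgst1 was lost without M0 library 2 (adjusted p = 0.095) or 3 (0.086) and without M2 library 1 (0.14) or 2 (0.16). Iron genes showed the pair Tfrc, the transferrin receptor, up (1.78 ± 0.08), and Slc40a1, the iron exporter ferroportin, down (-3.08 ± 0.08), from 3925, 4089 and 3821 to 501, 447 and 449.

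Of 54 cell cycle genes of the G2 and M phases 22 rose and 32 were not called (median 0.41), where 17.4% of all genes tested rose. Of 43 genes of S phase 2 rose, 10 fell and 31 were not called (median -0.20), where 16.4% of all genes fell, and no difference between the phases was tested. Ube2c, which feeds the anaphase-promoting complex, went from 27.6, 26.3 and 11.9 to 43.9, 51.9 and 54.2 (1.19 ± 0.29, adjusted p = 0.0056), and Mki67, the proliferation antigen, from 899, 994 and 576 to 1169.6, 1024 and 1320.4 (0.51 ± 0.16, adjusted p = 0.029). The call of Mki67 was lost without M0 library 3, where the log2 fold change was 0.29 (adjusted p = 0.085), and without M2 library 1 (0.078) or M2 library 3 (0.11). The replication genes Atad2 (-0.68 ± 0.09) and Mcm6 (-0.45 ± 0.09) fell, and Pcna rose (0.45 ± 0.10). The cyclin Ccnd1 fell from 3386, 2964 and 3093 to 682, 787 and 1081 (-1.89 ± 0.14). These counts depended on single libraries: the 22 became 14 without M2 library 1 or M2 library 3 and 15 without M0 library 3, and the 10 became 5 without M0 library 2, M2 library 1 or M2 library 2, 14 without M0 library 3 and 6 by DESeq2.

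Some cell division genes singled out in the account of the study were looked at 1 by 1. Cdca2, a chromatin protein of mitosis, had 92.1, 85.8 and 70.5 in KO M0 and 91.3, 86.6 and 119 in KO M2 (0.25 ± 0.17, adjusted p = 0.30). Cdc25b, a phosphatase that activates cyclin-dependent kinases, had 305, 286 and 249.9 and then 328, 323 and 295 (0.17 ± 0.10, adjusted p = 0.22). The groups overlapped in both. Cdc20, an activator of the anaphase-promoting complex, went from a mean of 35.1 ± 6.92 to 56.5 ± 8.77 with no overlap (0.69 ± 0.22, adjusted p = 0.031), and Cdc25c from 12.3, 16.6 and 9.15 to 22.5, 23.1 and 24.2 (0.86 ± 0.30, adjusted p = 0.039). Both of these calls were lost by DESeq2 (adjusted p = 0.082 and 0.17), that of Cdc20 also without M0 library 2 (0.097), M2 library 1 (0.15) or M2 library 3 (0.055), and that of Cdc25c also with library totals, without a filter, and on leaving out any 1 library other than M0 library 2 (0.075 to 0.14). In WT cells all 4 rose, Cdca2 by 0.66 ± 0.18, Cdc25b by 0.40 ± 0.10, Cdc20 by 1.57 ± 0.24 and Cdc25c by 1.63 ± 0.37, yet the difference between genotypes did not pass the test for any of them (interaction log2 -0.40 ± 0.26, -0.22 ± 0.15, -0.88 ± 0.34 and -0.76 ± 0.49, adjusted p = 0.67, 0.68, 0.42 and 0.68).

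The same comparison in WT cells, which shares no library with the KO comparison, called 3150 genes higher (22.1%) and 2987 lower (20.9%) of 14266. Among 14012 genes tested in both genotypes, 2180 rose in both, which is 88.7% of the genes that rose in KO and 70.6% of those that rose in WT, and 1886 fell in both, 81.9% and 64.1%. A further 276 rose and 412 fell by the test in KO alone, 252 and 364 of them with the same sign in WT, and 901 and 1053 in WT alone, 846 and 965 of them with the same sign in KO. Of 1720 genes called in KO with a log2 fold change over 1 in size and tested in WT, 1711 moved the same way in WT. The median difference, KO minus WT, was -0.056 among such genes that rose and 0.017 among those that fell.

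**Figure D5:**
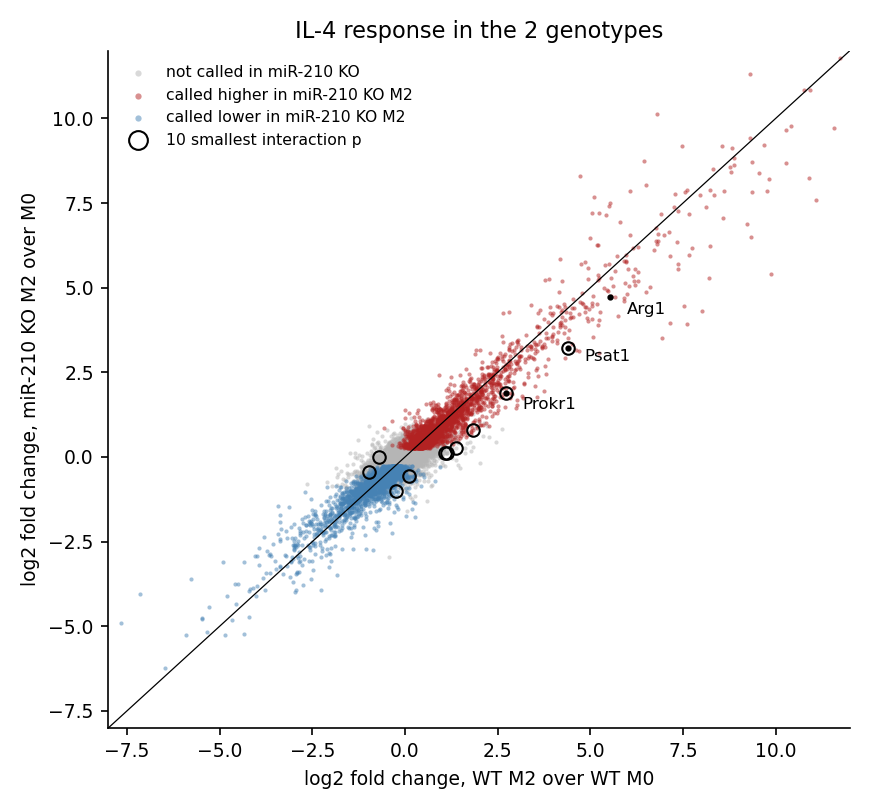
Log2 fold change with IL-4 in WT (horizontal) against miR-210 KO (vertical) for 14012 genes tested in both, coloured by the call in KO, with the line of equal change; 4 genes lie outside the plotted range of -8 to 12. Most points follow the line. The 10 genes with the smallest interaction p are outlined, among them Prokr1 at 2.73 in WT and 1.90 in KO. On axes of this range they appear near the line, although H1f5, at 1.37 in WT and 0.27 in KO, changed little in KO.

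Whether the response differed between genotypes was tested directly with the interaction term over all 12 libraries. Of 14825 genes, 0 (0.0%) passed an adjusted p of 0.05 by edgeR, 1327 had an unadjusted p under 0.05, and the lowest adjusted p was 0.0746. DESeq2 called 83 (0.804% of 10320 genes with an adjusted p), 24 with a positive and 59 with a negative interaction (KO change minus WT change), a sign that does not say which genotype changed more. The edgeR count was 77 without KO M0 library 2 and 65 without WT M0 library 2. The gene with the lowest p was Prokr1 (chr6:87555573-87567730), a receptor for prokineticins, which rose from 209.8, 196 and 179 to 699.8, 725 and 763 in KO (1.90 ± 0.09) and from 134, 121 and 121 to 867, 762 and 867 in WT (2.73 ± 0.09), a difference of -0.82 ± 0.12. Psat1, of serine synthesis, rose from 76.7 ± 10.3 to 713 ± 59.9 in KO and from 49.5 ± 7.74 to 1048 ± 199 in WT (difference -1.17 ± 0.23, adjusted p = 0.095). Plaur, the urokinase receptor, rose by 0.78 in KO and 1.83 in WT (difference -1.05 ± 0.20, adjusted p = 0.095). The normalised M0 level was higher in KO than in WT for all 3 genes. Each genotype was normalised apart, and this difference in M0 was not tested. Arg1 had 450.3, 339 and 306 in WT M0 and reached 17359, 17073 and 16011 with IL-4, so that its change, 5.53 ± 0.12, exceeded the 4.71 of KO cells, a difference (KO minus WT) of -0.81 ± 0.16 that missed the threshold (adjusted p = 0.095). For the marker Mrc1 the difference had the opposite sign, 0.28 (0.89 in KO and 0.62 in WT), and did not pass either (adjusted p = 0.59).

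Histone genes held 3 of the 10 smallest interaction p values. H1f5 had 362, 271 and 334 in KO M0, 396, 404 and 365 in KO M2, and in WT 158, 198 and 123 in M0 and 414, 439.9 and 383 in M2, a difference of -1.09 between its changes (0.27 in KO and 1.37 in WT, adjusted p = 0.095). In normalised counts, scaled apart for each genotype, H2bc15 (-0.96) and H3c1 had the same order of groups, with WT M0 lowest. Mmp14 showed a difference of -0.75, with a log2 fold change of -0.25 in WT that was not called, and Agpat4, an acyltransferase, showed a difference of -0.65. The remaining 2, Usf1 (0.71) and Arhgef3 (0.55), differed in the opposite sense. With all 12 libraries, none of the 10 passed the adjusted threshold by edgeR. All 10 passed it by DESeq2 (adjusted p = 0.00081 for Prokr1 and H1f5 to 0.024 for Agpat4), and by edgeR without KO M0 library 2 (0.013 to 0.048) or WT M0 library 2 (0.0033 to 0.043). Prokr1 passed also without KO M0 library 3 (0.044), WT M0 library 1 (0.030) or WT M2 library 2 (0.045). A p that misses it does not show that the genotypes responded alike.

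Calls in opposite directions were made for 6 genes. Txnrd1, the thioredoxin reductase, fell from 2019, 2073 and 2386 to 1512, 1585 and 1820.5 in KO (-0.40 ± 0.09, adjusted p = 0.0051) and rose from 1569, 1412 and 1405 to 1821, 1601 and 2212 in WT (0.36 ± 0.10, adjusted p = 0.0091). Slc7a11, the cystine transporter, fell from 1508, 1576 and 1674 to 1210.2, 1299 and 1378 in KO (-0.29 ± 0.08) and rose from 1178, 642 and 666 to 1459, 1304 and 2010 in WT (0.95 ± 0.20). Klf11, Maff and Gstp1 likewise fell in KO and rose in WT, and Gpr155 rose in KO and fell in WT. The KO call of Slc7a11 was lost without M0 library 3 (adjusted p = 0.051) or M2 library 1 (0.086), and those of Klf11, Maff, Gstp1 and Gpr155 were each lost in 3 or 4 of the 6 fits that left out 1 library (0.051 to 0.15): Klf11 without M0 library 1 or M2 library 1 or 3, Maff without M0 library 3 or M2 library 1 or 2, Gstp1 without M0 library 1 or 3 or M2 library 2 or 3, and Gpr155 without M0 library 1 or 3 or M2 library 1 or 2. For none of the 6 did the interaction pass the test (adjusted p = 0.095 for Txnrd1 and 0.11 for Slc7a11). At the level of lists, antioxidant genes had 17 down and 3 up in KO (median -0.45) and 11 down and 10 up in WT (median -0.08), genes of the G2 and M phases 22 up in KO (median 0.41) and 38 up in WT (median 0.68), and type I interferon-stimulated genes 36 down of 40 in KO (median -1.52) and 39 down of 41 in WT (median -1.56). The WT comparison also called more genes in all, 22.1% up and 20.9% down, against 17.4% and 16.4% in KO. The counts of lists are given side by side, and no difference between lists or genotypes was tested for them.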

How the data were processed

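RNA was sequenced from 12 libraries of mouse bone marrow-derived macrophages, 3 in each of the groups WT M0, WT M2, KO M0 and KO M2. Per the labels and the study's methods, ribosomal RNA was depleted, stranded paired reads were trimmed with Trimmomatic, duplicates were removed with Picard, reads were aligned to GRCm39 with STAR and counted per gene with featureCounts, and the authors deposited the raw counts of each pair of groups. Duplicate removal without molecular identifiers can lower the counts of short, abundant genes. The authors' own test, DESeq2, left no values that were used here. Columns were matched to groups by name. Their numbers 1 to 3 are in no label and only name libraries.

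From the counts, edgeR 4.0.16 (R 4.3.3, limma 3.58.1) gave TMM-normalised counts and the quasi-likelihood test with filterByExpr by group, and p-values were adjusted by Benjamini-Hochberg over all genes tested. Calls needed an adjusted p under 0.05 together with a change of over 1.2-fold. Errors of fold changes are standard errors. Normalised counts of KO and of WT libraries came from separate normalisations and are not on exactly 1 scale. The interaction (KO M2 against M0, minus WT M2 against M0) was fitted over 12 libraries with no limit on its size. The floor for a fold was 3 counts per library, a bound on counting error only. Per-kilobase levels used the joined length of all GENCODE exons of a gene, not that of 1 transcript. In GENCODE 56323 of 56941 gene identifiers were matched, and gene positions are of GRCm39. Promoter and miRNA sequences are RefSeq's for GRCm38.p6 and are not placed on the coordinates of the files. On simulated counts with 200 genes changed by 1 on the log2 scale, the KO comparison recovered 82.5% of them among 14120 genes, with 5.17% of the calls false, and the interaction 65% among 14567 genes, with 6.47% false. In the real KO comparison far more genes were called, and with changes of many sizes. The simulated shares are therefore no estimate of the recovery or the false calls in these data.

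Besides Mir210 and the 4 markers, genes were named by rule: the 12 largest increases and decreases among called protein-coding genes with a mean over 100 and no overlap, the 6 largest by counts gained or lost, up to 6 called members of each list at a mean over 50 or members whose role is described, the 10 smallest interaction p, and Cdca2, Cdc20, Cdc25b and Cdc25c. The lists, the markers and the comparison were chosen with earlier results of these data known. Genes called in opposite directions, immediate early genes and marker genes of other cells were named after their values were seen. Alternatives were DESeq2 1.42.0, other scalings (RLE, library totals), filters and fold limits, a fit of all 12 libraries, library number as a block, and leaving out each library. No set test was run.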

Additional observations from a re-analysis of the deposited data

How the results depend on the processing

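The KO comparison kept counts within 1.5 times of 4842 under DESeq2, RLE scaling, library totals, no filter, a stricter filter, no fold limit, protein-coding genes only and a fit of all 12 libraries. Requiring a log2 change over 1 left 1800 genes (1057 up, 743 down) and 245 of 500 calls of list members. Leaving out 1 library gave 4034 to 4996 genes called, 2099 to 2564 up and 1885 to 2432 down, and 440 to 495 calls in lists. Of 151 called genes named here, 137 kept the call and direction in all 15 settings other than that limit, 14 lost it in at least 1, and 0 reversed.

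The interaction count of 0 by edgeR was 83 by DESeq2 and 341 without a filter, and 0 with RLE scaling, library totals, a stricter filter, a fold limit or the block. Leaving out 1 library gave 0 to 77: 77 without KO M0 library 2, 65 without WT M0 library 2, 5 without WT M0 library 1, 2 without KO M0 library 3, 1 without WT M2 library 2 and 0 otherwise. The cause was not tested.

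Signs turned in genes that were not called with all libraries: without 1 library, Egr1 ran from -3.55 to 1.89 and Fos from -2.08 to 0.52 (highest without KO M0 library 3), H3c1 from -0.0079 to 0.26 (lowest without KO M0 library 2), Stat6 from -0.051 to 0.0099 (highest without KO M0 library 1) and Usf1 from -0.078 to 0.054 (above 0 without KO M0 library 2, 0.054, KO M2 library 1, 0.014, or KO M2 library 3, 0.017).

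The STAT palindrome with 4 bases inside, counted alone, stood in 5.60% of promoters of tested genes, 6.18% of those called up and 5.38% of those called down, that with 3 bases in 6.71%, 5.87% and 6.83%, and the interferon motif, added after seeing the data, in 3.38%, 2.78% and 6.17%.

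With library number as a replicate block, 4477 genes were called (2342 up, 2135 down), and of the named genes only Cdc25c (adjusted p = 0.063) and Tm7sf2 (adjusted p = 0.0502) lost the call. Deviations from the group means gave no sign that the numbers pair the libraries. They correlated at 0.070, -0.29 and 0.016 between same-numbered KO libraries and at -0.038, -0.088 and -0.055 in WT. Not every library correlated best with its own number. The highest values were 0.29, between KO M0 library 1 and KO M2 library 2, and 0.31, between KO M0 library 2 and KO M2 library 3. With 3 libraries a group, such correlations cannot decide whether libraries were paired in some other order.

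Depth limits the rarest genes: 119 genes that rose and 31 that fell had 1 group at or under the floor of 3 counts per library. With 3 libraries a group and each group in its own batch, no difference here is separable from the batch.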

Other observations

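Several gene groups that the results above leave out also moved in both directions in KO cells. Beside the counts of this section, 17.4% of all genes tested rose and 16.4% fell. Of 20 scavenger and phagocytic receptor genes 7 rose and 9 fell. Mfge8, a bridge to phosphatidylserine on dying cells, rose from 331, 247 and 261 to 2184, 1983 and 1808 normalised counts (2.84 ± 0.12), whereas the receptor Axl (-2.59 ± 0.22) and its ligand Gas6 (-1.90 ± 0.10) fell, Gas6 from 8731, 7442 and 8197 to 2455, 2107 and 1989.8. Of 18 C-type lectins 9 rose and 7 fell, with Clec10a up (1.51 ± 0.09) and Clec4n, which encodes Dectin-2, down (-2.26 ± 0.09). Of 19 complement genes 4 rose and 7 fell, among them Cd55, an inhibitor of complement on the cell surface (-3.08 ± 0.17), and C4b (-2.90 ± 0.26). Chemokines and their receptors were level in number, 8 and 8 of 22. The eosinophil attractant Ccl24 had 0, 0.876 and 0.915 in M0 and 177, 114 and 50.7 in M2, at least 37.1-fold higher against 3 counts per library, and its receptor Ccr3 rose as well (2.67 ± 0.22).

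Of 27 growth factor and TGF-beta genes 10 rose and 10 fell: Pdgfa rose from 232, 193 and 258 to 919, 898 and 892 (1.99 ± 0.11), and Gdf15, a cytokine of cell stress, fell (-2.08 ± 0.14). Of 40 lysosomal genes 13 rose and 9 fell, with the proteases Ctsl (1.47 ± 0.08) and Ctsk (1.86 ± 0.11) up and Ctsc down (-1.84 ± 0.09). Among 34 genes of the amino acid stress response and ER chaperones 12 rose and 9 fell (5 without KO M2 library 1, and 6 without KO M0 library 3, without KO M2 library 2 or with all 12 libraries in the fit). Slc1a5, a glutamine transporter, went from 108, 105 and 133 to 649, 561 and 597 (2.38 ± 0.11), and Pdia4, a protein disulphide isomerase, rose by 2.23 ± 0.09, while the stress factor Ddit3 fell (-0.91 ± 0.12). Tetraspanins and the Ms4a family had 7 up and 9 down of 20, costimulatory and checkpoint genes 4 and 8 of 17, with Icosl lowest (-3.11 ± 0.20), macrophage identity genes 3 and 8 of 18, and iron and heme genes 4 and 10 of 18. Of 29 G1 cyclins, kinases and inhibitors 6 fell and 1 rose, Ccnd3 falling by 1.06. Without 1 library 4 to 8 fell (4 without KO M2 library 1, as by DESeq2, and 8 without KO M0 library 3), and 2 rose without any 1 of the KO M0 libraries.

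Of 12 dendritic cell markers 4 could be tested. Zbtb46, a factor of classical dendritic cells, had 6.14, 1.75 and 2.75 in M0 and 115, 87.5 and 101 in M2 (4.83 ± 0.32, and 5.42 without KO M0 library 1), and Batf3 rose by 2.33 ± 0.17. Bst2 fell from a mean of 4553 ± 516 to 2185 ± 285 (-1.06 ± 0.11), and Kmo was not called (-0.40 ± 0.27). The summed level of the list, most of it Bst2, ran from 4071 to 5027 in M0 and from 2181 to 2798 in M2. Of 12 fibroblast and stromal markers 2 could be tested, with summed levels of 78.8 to 92.5 and 87.6 to 119. The part of other cells in these values was not tested.

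Over 29 tested immediate early genes, 9 rose and 7 fell with all KO libraries (median log2 fold change -0.08). Without KO M0 library 3, 17 rose and 5 fell (median 0.67).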
